A study of Mus musculus with 6 samples.

Results

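Cyclic AMP and cyclic GMP are made by cyclases and removed by phosphodiesterases, and the genes of these enzymes were examined in tuft cells of the mouse ileum. The members were all genes of the deposited table whose symbol begins with Adcy and a digit (adenylyl cyclases), with Gucy (guanylyl cyclases) or with Pde and a digit (phosphodiesterases). The rule found 45 of 23420 genes, namely 10 Adcy, 9 Gucy and 26 Pde genes. Tuft cells are rare, brush-bearing sensory cells of the gut lining that release interleukin-25. They were sorted from the ileum of Gfi1b-eGFP/+ mice on a C57BL/6J background as GFP+, EpCam+, CD45- and PI- cells, and 6 libraries labelled as replicates from mice form the only group. All 6 libraries carry the same reporter allele, which places green fluorescent protein under the control of Gfi1b, a transcription factor gene. The paper uses mice of this genotype as its wild type. No treatment, reporter-free or non-tuft group was analysed here. The age of the animals is not in the labels, and the paper gives only an age range for all its experimental mice. Whether a library pools animals is not in the labels either.

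In taste cells, sweet, umami and bitter receptors couple to gustducin, a G protein whose alpha subunit is encoded by Gnat3. Its beta and gamma subunits activate the phospholipase PLCβ2 and, further on, the channel TRPM5, while the alpha subunit resembles the transducins of the retina and is known to activate phosphodiesterases, which lowers cyclic nucleotides. Transmembrane adenylyl cyclases make cAMP under the control of stimulatory and inhibitory G proteins and, for some isoforms, of calcium. Guanylyl cyclases make cGMP either as receptors in the membrane or as soluble enzymes that sense nitric oxide, and phosphodiesterases differ in which nucleotide they cleave. The libraries address which of these enzymes have transcripts beside those of gustducin. They measure RNA and not enzyme activity, and coupling of any enzyme to gustducin was not tested.

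A Pde symbol does not by itself mark an enzyme of this kind, so the coding sequences were searched for the signature of class I phosphodiesterases, a run of 12 residues with the histidine and aspartate that hold the catalytic metal ions. Of the 26 Pde genes, 21 encode it in GENCODE M21 (GRCm38). The 5 without it were Pde6d, Pde6g and Pde6h, which encode accessory subunits of the retinal enzyme, Pde4dip, which encodes a scaffold of the centrosome and Golgi, and Pde12, which encodes a mitochondrial RNA exonuclease. None of the 19 cyclase genes encodes the signature. The coding bases of the signature are shown for the 5 phosphodiesterases that the comparisons below turn on, with the codons of both histidines and of the aspartate in capitals.
Pde2a: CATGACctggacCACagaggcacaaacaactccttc
Pde9a: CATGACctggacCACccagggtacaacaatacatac
Pde4d: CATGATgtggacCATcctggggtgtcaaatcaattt
Pde5a: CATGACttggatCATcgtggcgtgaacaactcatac
Pde1a: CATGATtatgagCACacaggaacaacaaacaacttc

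All lie in coding exons, on the plus strand for Pde2a (chr7:101508482-101508517), Pde4d (chr13:109939313-109939348) and Pde5a (chr3:122824966-122825001) and on the minus strand for Pde1a (chr2:79887855-79887890). That of Pde9a spans an intron on the plus strand between positions 31460230 and 31461574 of chromosome 17. Over these 36 bases Pde2a was identical to Pde9a at 26, to Pde5a at 26, to Pde1a at 25 and to Pde4d at 18. Pde9a was identical to Pde5a at 25, to Pde4d at 22 and to Pde1a at 20, and Pde4d to Pde5a at 23.

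Expression was deposited as TPM, transcripts of a gene per 1000000 transcripts of the library after correction for transcript length. TPM keeps no read number, so sequencing depth is unknown and a gene listed at 0 has no stated upper limit. Per library, 13044 to 13308 genes were listed above 0, with a median of 10.0 to 11.6 TPM. In these libraries Rn45s, the ribosomal RNA precursor, took 23.1% to 32.6% of the TPM, and Gm20594 stood at 15588 to 21283 TPM in replicates 1 to 3 and at 51805 to 56441 TPM in replicates 4 to 6. Tuft cell markers were present as labelled, with 13 of 14 listed genes in the table and a summed level of 7136 to 12022 TPM. All 13 were above 0 in every library, against 47.2% of all genes. Markers of other epithelial cells were present too, with summed levels of 7703 to 16268 TPM for 8 enterocyte genes, 4322 to 31951 TPM for 7 Paneth cell genes and 1053 to 5118 TPM for 7 goblet cell genes. The sums were 379 to 537 TPM for 9 enteroendocrine genes, 325 to 782 TPM for 5 stem cell genes and 123 to 302 TPM for 7 lymphocyte genes. The enteroendocrine sum was mostly Sct (331 to 474 TPM), and 3 of the 9 genes were above 0 in every library, against 47.2% of all genes. In the lymphocyte list, Ptprc, which encodes the CD45 that the sort selected against, had 74.2 to 171 TPM. It was the highest gene of the list in replicates 1 to 4, and Gzma (10.4 to 158 TPM) was the highest in replicates 5 and 6. The T cell genes Cd3e, Cd3g and Cd8a reached at most 11.6, 13.1 and 8.42 TPM, and Cd3g was at 0 in replicate 1. Whether the Ptprc transcripts came from lymphocytes was not tested. Of 8 genes of smooth muscle, fibroblasts and endothelium, 4 (Myh11, Des, Col1a2 and Cdh5) were listed at 0 in every library, against 32.9% of all genes. Their sum was 0 to 4.11 TPM for all 8, with Tagln above 0 in 4 libraries at up to 3.83 TPM. In bulk RNA of this kind, more cells of a type and more RNA per cell cannot be told apart, and the part of other cells in the values below was not tested.

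The cyclic nucleotide genes of the ileal tuft cell libraries were led by 3 genes whose products make or cleave cGMP, namely Gucy2c, Pde2a and Pde9a. Of these, the product of Pde2a cleaves cAMP as well. Of the 45 members, 24 were listed above 0 in all 6 libraries (53.3%, against 47.2% of all genes), 10 in some libraries only and 11 in none (24.4%, against 32.9% of all genes). A mean of at least 1 TPM was reached by 21 members (46.7%, against 51.4% of all genes), so the set as a whole was close to the table's average. A mean of at least 100 TPM was reached by the 3 leading genes (6.67%, against 4.5% of all genes). These 3 stood apart from every other member, as the lowest library of Pde9a, at 80.9 TPM, was above the highest library of Adcy6, the next member, at 62.5 TPM. The members together had 596 to 840 TPM, with the highest sum in replicate 1.

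**Figure D1:**
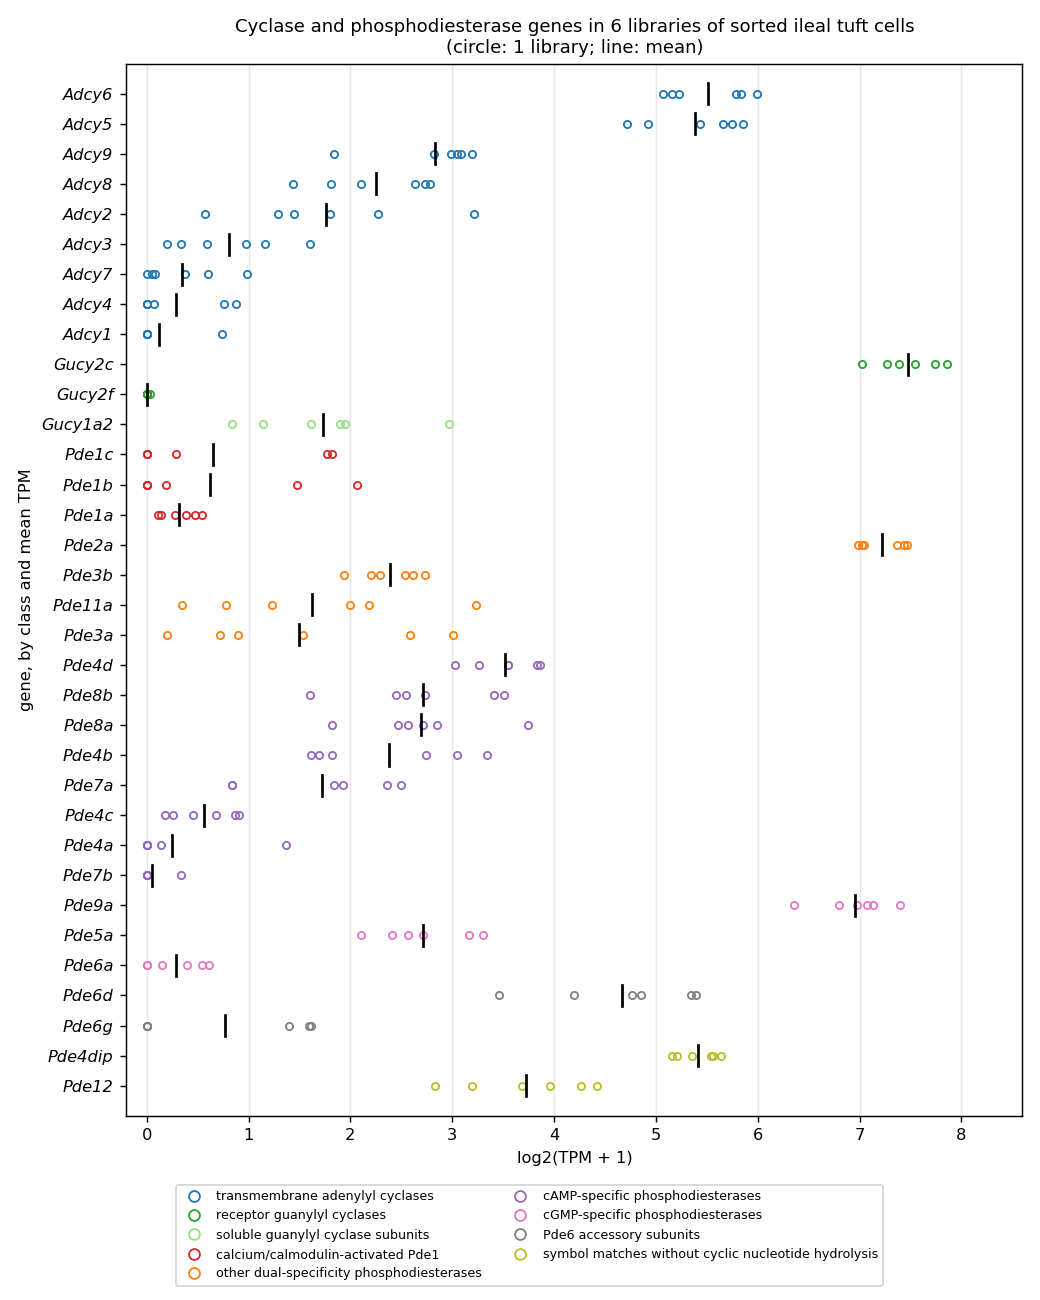
TPM of the 34 members above 0 in any library, on a log2(TPM + 1) axis, ordered by class and mean. Each circle is 1 of 6 libraries and the black line is the mean of the log2 values. Gucy2c, Pde2a and Pde9a lie to the right of all other genes.

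Adenylyl cyclase transcripts were mainly those of Adcy5 and Adcy6, the isoforms that calcium and inhibitory G proteins restrain. Adcy6 had 32.7, 54.3, 34.7, 62.5, 36.6 and 56.2 TPM in replicates 1 to 6, and Adcy5 had 52.6, 57.1, 42.4, 29.2, 49.6 and 25.2 TPM. Adcy5 was the higher of the pair in replicates 1, 2, 3 and 5, and Adcy6 in replicates 4 and 6, so that their means of 46.2 ± 12.9 and 42.7 ± 13.0 TPM (SD, n = 6 each) did not set an order. Together they made 85.4% ± 3.25 (SD, n = 6) of the TPM of the 9 transmembrane cyclase genes, whose sum was 103.9 ± 11.9 TPM. All other adenylyl cyclases were lower than both in every library.

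Adcy9, a cyclase insensitive to the plant compound forskolin that activates the other transmembrane forms, had 7.49, 6.07, 6.95, 7.29, 8.16 and 2.59 TPM, and its value in replicate 6 was the lowest. Adcy8, a calcium- and calmodulin-stimulated cyclase described in taste cells, had 2.5, 1.70, 5.21, 3.31, 5.88 and 5.64 TPM in replicates 1 to 6. Both were thus low genes that were listed in every library. Adcy2, which Gβγ can stimulate, ranged from 0.49 to 8.26 TPM with a median of 2.10, and its highest value was in replicate 1, without which its mean fell from 3.04 to 1.99 TPM. The calcium-stimulated Adcy3 ranged from 0.15 to 2.04 TPM with a median of 0.74, and 1380 of its exonic bases (22.1%) overlap Cenpo on the opposite strand, which had a mean of 4.82 TPM. Adcy1, Adcy4 and Adcy7 were above 0 in 1, 3 and 5 libraries, with at most 0.67, 0.84 and 0.98 TPM. Adcy10, the soluble cyclase that bicarbonate activates, was listed at 0 in every library. Summed by their response to calcium, the inhibited Adcy5 and Adcy6 had 88.9 ± 12.1 TPM and the stimulated Adcy1, Adcy3 and Adcy8 had 5.01 ± 2.31 TPM (SD, n = 6).

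The cyclase known from taste cells was compared with the widespread epithelial Adcy6 within each library. Adcy8 was lower in 6 of 6 libraries, by -3.26 ± 0.75 on the log2(TPM + 1) scale (SD, n = 6). The two-sided exact sign-flip permutation test gave p = 0.03125 and an adjusted p of 0.03125 over 4 pairs. That p is the smallest that 6 libraries allow. The TPM of Adcy6 was 6.22 to 31.9 times that of Adcy8, with a median of 11.5. The difference was smallest in replicates 3 and 5, both with Adcy6 below its median and Adcy8 above its own. In replicate 1, with the lowest Adcy6 (32.7 TPM), Adcy8 was at 2.5 TPM and the difference was -3.27.

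Among guanylyl cyclases, the transcripts were almost all those of 1 receptor. Gucy2c, the receptor for the gut peptides guanylin and uroguanylin (chromosome 6 of GRCm38, 136697284 to 136781765, minus strand), had 231, 213, 167, 186, 153 and 129 TPM in replicates 1 to 6. It was the member with the highest mean, 180.0 ± 38.1 TPM (SD, n = 6), and its TPM was above that of 94.4% to 96.0% of the genes listed above 0. It was highest in replicates 1 and 2 and lowest in replicate 6. Of the other receptor cyclases, Gucy2d of olfactory neurons, Gucy2e of photoreceptors and Gucy2g were listed at 0 in every library, and Gucy2f, also of photoreceptors, reached 0.02 TPM in replicate 6 and was at 0 in the others.

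The soluble enzyme is a pair of an alpha and a beta subunit, and no beta subunit was listed. Gucy1a2, an alpha subunit, had 6.85, 2.85, 1.2, 2.07, 0.79 and 2.74 TPM, with the highest value in replicate 1. Gucy1a3, the other alpha subunit, and the beta subunits Gucy1b2 and Gucy1b3 were at 0 in all 6 libraries. Gucy1a3 and Gucy1b3 appear as Gucy1a1 and Gucy1b1 in GENCODE M21. Low depth or a failed estimate can also leave a gene at exactly 0. Gucy2c against Gucy1b3 was a planned pair, but with Gucy1b3 at 0 in every library the sign of each difference was fixed, so no test or size of the difference is given.

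Gucy2c is known from enterocytes as well as from other cells of the gut epithelium, and the enterocyte markers were abundant here. The summed tuft cell markers were 12022, 10826, 7136, 8639, 7167 and 7176 TPM in replicates 1 to 6, and the summed enterocyte markers were 16268, 12416, 7703, 12050, 8313 and 9712 TPM. Both sums and Gucy2c were highest in replicate 1 and next highest in replicate 2. Fabp1 (4226 to 12794 TPM) made most of the enterocyte sum in every library. Fabp1 and Apoa4 were highest in replicate 1 and Slc10a2 in replicate 6. The other enterocyte markers, Alpi, Apoa1, Fabp2, Fabp6 and Sis, were highest in replicate 4. The cell of origin of Gucy2c was not tested. The genes of its ligands were more abundant than the receptor in every library. Guca2b, which encodes uroguanylin, had 233 to 1300 TPM (median 568) and Guca2a, which encodes guanylin, had 352 to 792 TPM (median 493).

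**Figure D2:**
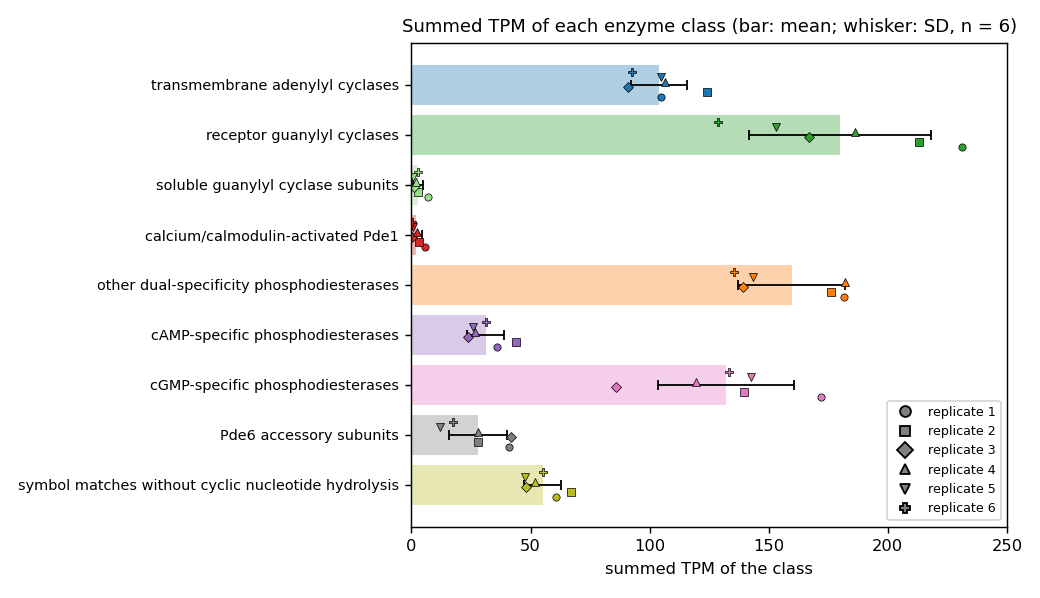
Summed TPM of the 9 classes with any transcript. Bars are means with SD over 6 libraries, and each symbol is 1 replicate. The receptor guanylyl cyclases (180.0), the dual-specificity phosphodiesterases (160) and the cGMP-specific phosphodiesterases (132) have the longest bars, while the soluble guanylyl cyclase subunits (2.75) and Pde1 (1.97) are near 0.

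Among the 21 catalytic phosphodiesterases, Pde2a and Pde9a made 84.9% ± 1.88 (SD, n = 6) of the TPM, with 82.1% to 86.8% in single libraries. Pde2a, which cleaves both nucleotides and whose cleavage of cAMP is stimulated when cGMP binds to it, had 173, 164, 125, 176, 130 and 131 TPM in replicates 1 to 6. It varied 1.41-fold between libraries, with replicates 1, 2 and 4 above the other 3. The gene lies on chromosome 7 from 101421691 to 101512827 on the plus strand. GENCODE M21 has a second protein-coding gene, Gm45837, that shares 3955 (64.3%) of its exonic bases on the same strand and is not in the table, and how reads from the shared bases were assigned is not known.

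Pde9a, which cleaves cGMP with high affinity, had 167, 134, 80.9, 110, 139 and 125 TPM (chromosome 17, 31386210 to 31476310, plus strand). It was highest in replicate 1 and lowest in replicate 3. Pde2a exceeded Pde9a in 5 of 6 libraries, by up to 1.60 times, and Pde9a was the higher in replicate 5. Their ranges overlapped, so no order was set between them. In the same libraries Gucy2c had 0.982 to 1.34 times the TPM of Pde2a and 1.03 to 2.06 times that of Pde9a.

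Phosphodiesterases specific for cAMP had a class sum of 31.1 ± 7.59 TPM (SD, n = 6) over 8 genes, or 9.56% ± 1.49 of the catalytic phosphodiesterases. Pde4d, which shapes cAMP pools in many epithelia, had 8.63, 10.7, 13.2, 13.6, 7.15 and 10.7 TPM in replicates 1 to 6 and was the most abundant of them in 4 of 6 libraries. The high-affinity cAMP enzymes Pde8a and Pde8b could not be ordered. Pde8a had 4.93, 12.4, 2.53, 5.55, 6.23 and 4.52 TPM, and Pde8b had 10.4, 9.65, 4.47, 2.04, 4.85 and 5.67 TPM. Each was higher than the other in 3 libraries. Pde4b, which is induced in immune cells by inflammatory signals, ranged from 2.07 to 9.11 TPM (median 4.12), and Pde7a from 0.79 to 4.64 TPM (median 2.70). Pde4c stayed between 0.13 and 0.88 TPM, Pde4a was above 0 in 2 libraries at up to 1.58 TPM, and Pde7b was above 0 in replicate 2 only, at 0.26 TPM.

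Apart from Pde2a, the enzymes that cleave both nucleotides averaged less than 5 TPM. Pde3b, which cGMP inhibits in its cleavage of cAMP and which insulin activates in fat, had 3.88, 3.61, 5.13, 4.81, 5.64 and 2.82 TPM. Pde11a had 2.99, 8.39, 3.54, 0.27, 1.34 and 0.72 TPM, and its range was 31.1-fold. Pde3a, of heart and vessels, had 1.90, 0.15, 5.00, 0.65, 7.07 and 0.86 TPM. Each of the last pair was listed in every library but rested on a few of them. The mean of Pde11a fell from 2.88 to 1.77 TPM without replicate 2, and that of Pde3a from 2.61 to 1.71 TPM without replicate 5. Pde10a, of the striatum, was at 0 in every library. Among cGMP-specific genes, Pde5a, the target of sildenafil, had 4.32, 5.58, 4.94, 8.85, 3.30 and 7.97 TPM, below Pde9a in every library.

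Phosphodiesterases that taste cells and photoreceptors are known to use with gustducin or transducin had few transcripts. Pde1a, a calcium- and calmodulin-activated enzyme reported in taste tissue, had 0.31, 0.46, 0.10, 0.39, 0.21 and 0.08 TPM in replicates 1 to 6. It was listed in every library but never reached 0.5 TPM. Pde1b was above 0 in replicates 1, 4 and 5, at 3.18, 1.79 and 0.14 TPM, and Pde1c in replicates 1, 2 and 5, at 2.42, 2.54 and 0.22 TPM. The 3 Pde1 genes together made 0.539% ± 0.574 (SD, n = 6) of the TPM of the catalytic phosphodiesterases. Their summed mean of 1.97 TPM fell to 1.19 TPM without replicate 1. Of the catalytic subunits of the retinal enzyme, Pde6b of rods and Pde6c of cones were at 0 in all libraries. Pde6a, of rods, was above 0 in 4 libraries at up to 0.53 TPM.

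Among the accessory genes of the retinal enzyme, Pde6d alone was listed in every library. Pde6d, whose product carries prenylated proteins in many cell types, had 41.0, 28.0, 39.8, 26.2, 9.98 and 17.3 TPM, which was more than Pde5a in every library. It was lowest in replicates 5 and 6. The inhibitory subunit gene Pde6g was above 0 in replicates 3, 4 and 5 at up to 2.07 TPM, and that of cones, Pde6h, was at 0 in all 6. Pde4dip and Pde12 match the rule by symbol only. The TPM of Pde4dip was above that of 78.6% to 83.6% of the genes listed above 0, and that of Pde12 above 38.0% to 68.3%. Pde4dip had 46.2, 49.0, 39.8, 45.6, 35.95 and 34.6 TPM, and Pde12 had 14.6, 18.2, 8.13, 6.11, 11.9 and 20.5 TPM. For Pde12, 527 exonic bases (6.82%) overlap Arf4 on the opposite strand, which had a mean of 130 TPM.

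A pair of further comparisons within libraries set the taste cell enzyme against an epithelial one, and a cAMP enzyme against a cGMP enzyme. Pde1a was lower than Pde4d in 6 of 6 libraries, by -3.19 ± 0.37 on the log2(TPM + 1) scale (SD, n = 6; p = 0.03125 and adjusted p of 0.03125 over 4 pairs, exact permutation test). The TPM of Pde4d was 23.3 to 134 times that of Pde1a. Pde4d was higher than Pde5a in 6 of 6 libraries, by 0.80 ± 0.30 (SD, n = 6; p = 0.03125 and adjusted p of 0.03125, exact permutation test), or 1.34 to 2.67 times in TPM. It was the smallest of the 3 differences between genes with transcripts. Replicate 6 had the narrowest gap between these genes and replicate 3 the widest.

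**Figure D3:**
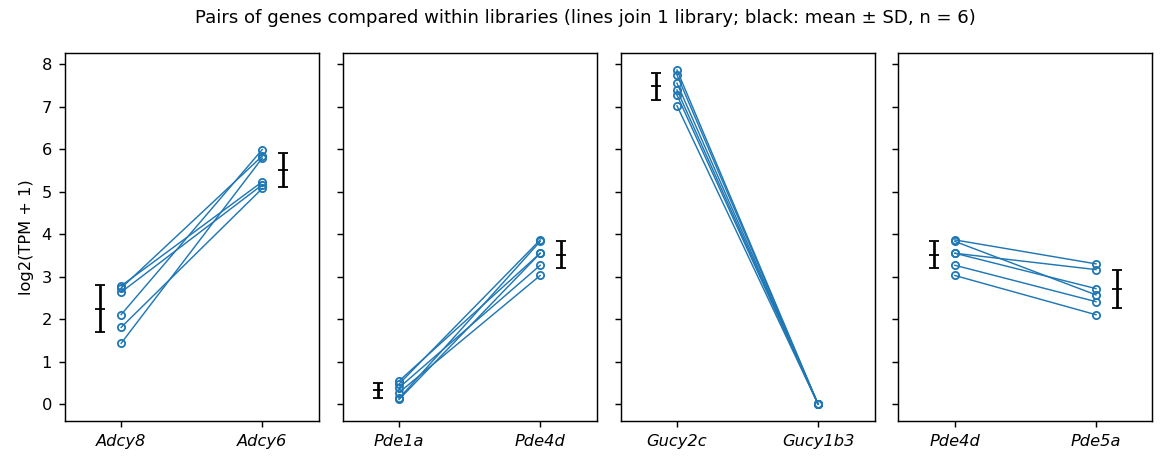
The 4 pairs of genes on a log2(TPM + 1) axis. Each line joins the values of 1 library, and black bars give the mean ± SD over 6 libraries except for Gucy1b3, which is listed at 0. Within each panel all 6 lines slope the same way, with mean differences of -3.26 (Adcy8 minus Adcy6), -3.19 (Pde1a minus Pde4d) and 0.80 (Pde4d minus Pde5a). Gucy1b3 is at 0, so its panel shows the level of Gucy2c.

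Gnat3 itself had 157, 194, 81.8, 177, 111 and 155 TPM in replicates 1 to 6 and served as the measure for the enzymes that could act beside gustducin. Gucy2c had 0.829 to 2.04 times the TPM of Gnat3 and exceeded it in 5 of 6 libraries. Pde2a had 0.844 to 1.53 times and Pde9a 0.621 to 1.25 times, and they exceeded Gnat3 in 3 and 2 libraries. These 3 were hence at the level of the gustducin gene. Adcy5 and Adcy6 stayed below it in every library, at medians of 0.314 and 0.340 times. Pde4d had 0.0548 to 0.161 times and Adcy8 0.00876 to 0.0637 times the TPM of Gnat3, and Pde1a at most 0.00237 times. Replicate 3 had the lowest Gnat3 and the highest ratio for 7 of the 9 genes.

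**Figure D4:**
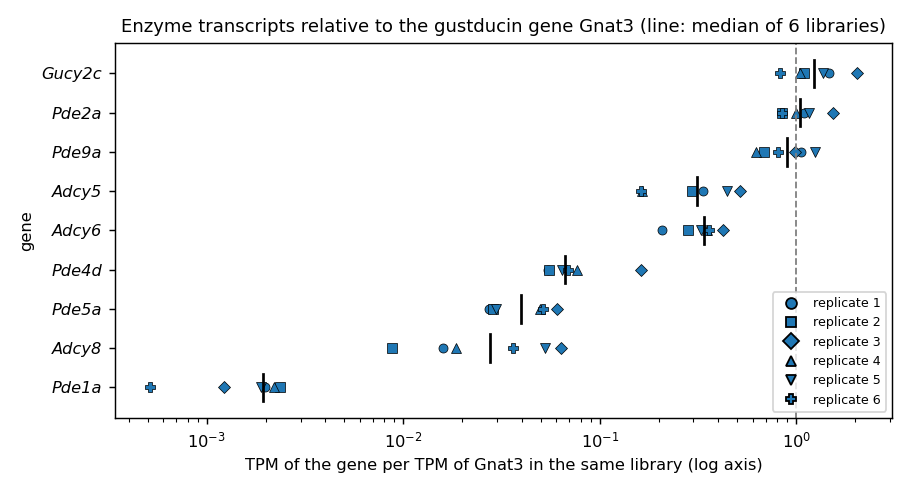
TPM of 9 members per TPM of Gnat3 in the same library, on a log axis, with a symbol per replicate and a black line at the median. The dashed line marks equal TPM. Gucy2c, Pde2a and Pde9a lie around it, and Pde1a lies farthest to the left with a median of 0.00193.

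Genes that act around these enzymes were read by list. All 8 genes listed for the taste cascade had a mean of at least 1 TPM, against 51.4% of all genes. The list was led by Trpm5 (839 to 1403 TPM), the gustducin gamma subunit gene Gng13 (303 to 498 TPM) and Plcb2 (163 to 309 TPM). Of the 8, 7 were above 0 in all libraries, against 47.2% of all genes. The beta subunit gene Gnb3, with a mean of 5.77 TPM, was at 0 in replicate 5. Among 9 alpha subunits that act on cyclases or phosphodiesterases, 5 had a mean of at least 1 TPM, against 51.4% of all genes. The stimulatory Gnas ranged from 154 to 355 TPM, and the inhibitory Gnai2 and Gnai3 from 148 to 308 TPM and from 42.7 to 95.8 TPM. The transducin genes Gnat1 and Gnat2 were at 0 in every library, as were Pde6b and Pde6c.

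The most abundant kinase genes that cAMP acts on were above those of cGMP in every library. Of 11 cAMP effector genes, 7 were above 0 in all libraries, against 47.2% of all genes. The regulatory subunits of protein kinase A Prkar1a and Prkar2a had 45.5 to 117 TPM and 36.3 to 48.1 TPM, and the catalytic subunit Prkaca had 14.7 to 36.4 TPM. Of the cGMP-dependent kinases, Prkg2, which acts below Gucy2c in enterocytes, had 0.88 to 6.45 TPM. The other kinase, Prkg1, stayed at 0.10 to 0.31 TPM. Among genes of cyclic nucleotide-gated channels, Cnga3 reached at most 0.26 TPM, and Cnga1, Cnga2, Cnga4 and Cngb3 were at 0. Of 13 ligand and receptor partner genes of guanylyl cyclases, 3 had a mean of at least 1 TPM, against 51.4% of all genes. They were Guca2b, Guca2a and the inducible nitric oxide synthase Nos2 (3.02 to 11.1 TPM). The natriuretic peptide receptors, cyclases outside the symbol rule, were at 0 (Npr2) or at most 0.33 TPM (Npr1).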

How the data were processed

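Sorted tuft cell RNA was made into libraries by a modified SMART-Seq2 protocol and sequenced with paired-end reads. The sample labels also name a 3' polyA and a droplet preparation. Levels of different genes can be compared only if whole transcripts were covered. The authors aligned reads to the UCSC mm10 transcriptome with Bowtie and deposited TPM from RSEM v1.2.3, which divides reads shared by similar transcripts. The processing notes also name TopHat and DESeq2, and the strand setting is not given in the sources used here. Depth is unknown. The table's 6 columns were matched to replicates by number, and no 2 libraries were identical.

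Genes were compared within libraries on log2(TPM + 1) by two-sided exact sign-flip permutation tests over 64 assignments, with Benjamini-Hochberg adjustment over 4 pairs. An unpaired exact Mann-Whitney test, 2 pseudocounts, a low-value filter and 2 rescalings were alternatives. Whether the libraries were independent beyond their labels as mouse replicates is not given, so p-values speak only of these libraries. Each sign-flip p-value here reflects that the difference had the same sign in all 6 libraries, and it does not measure their spread. Values in every library are given for members with a mean of at least 5 TPM, for the 3 most abundant of each class with at least 1 TPM and for the genes of the 4 pairs. Pde3a, Pde1b and Pde1c lie outside this rule and were named after their values were seen. Members and lists were chosen with earlier results of these data known. Gene positions and coding sequences were from GENCODE M21 on GRCm38, the assembly of mm10 but not the authors' gene models, with all 45 members matched. The rescaling factors and the permutation test were checked on simulated data. Scripts ran in Python 3.11.15 with matplotlib 3.10.9, scipy 1.17.1, pandas 2.3.3 and numpy 2.4.6. The full list of cGMP effectors and channels is not reported here.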

Additional observations from a re-analysis of the deposited data

Results flagged for a closer look

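Of the 21 members with a mean of at least 1 TPM, 2 had a library whose gap to the nearest other, divided by the whole range, was above Dixon's 95% critical value for 6 libraries. Chance would place about 1.05 of 21 there. Gucy1a2 was at 6.85 TPM in replicate 1 and at most 2.85 TPM elsewhere (ratio 0.660), and its mean without replicate 1 was 1.93 TPM. Pde8a was at 12.4 TPM in replicate 2 and at most 6.23 TPM elsewhere (ratio 0.626), and its mean without replicate 2 was 4.75 TPM.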

How the results depend on the processing

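The 3 pair differences between genes with transcripts kept their direction and an adjusted exact permutation p below 0.05 under pseudocounts of 0.1 and 0.01, a filter at 0.1 TPM, both rescalings and the exact Mann-Whitney test (adjusted p = 0.00289 to 0.0152). With the same sign in every library, pseudocounts and rescalings cannot change the sign-flip p, so this is no sign of robustness. The size did change with the pseudocount, to -5.53 for Pde1a against Pde4d at 0.01. Gucy2c against Gucy1b3, which is at 0, has no size apart from the pseudocount. With 1 library left out the differences were -3.43 to -3.05 (Adcy8), -3.28 to -3.09 (Pde1a) and 0.71 to 0.89 (Pde4d), without a test, as 5 libraries cannot give a p below 0.0625. They were -3.38, -3.19 and 0.98 in replicates 1 to 3 alone and -3.15, -3.19 and 0.62 in replicates 4 to 6 alone.

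Rescaling without Rn45s and Gm20594 raises every value, from 1.33 times in replicate 3 to 1.61 times in replicate 6. Whether a mean moves beyond its SD under this rescaling thus depends on how large that SD is relative to the mean. Class sums then moved beyond their SD, to 151 TPM (transmembrane adenylyl cyclases), 260 TPM (receptor guanylyl cyclases), 232 TPM (dual-specificity phosphodiesterases other than Pde1), 45.2 TPM (cAMP-specific), 193 TPM (cGMP-specific) and 80.1 TPM (Pde4dip and Pde12). Adding all dual-specificity genes to the cAMP-specific class took its sum from 31.1 to 193 TPM. The Pde1 sum fell from 1.97 to 1.19 TPM without replicate 1. Of 34 members above 0, 12 moved beyond their SD without Rn45s and Gm20594 and 0 under median-of-ratios factors. A mean cannot shift by its SD when 1 of 6 libraries is left out, so that criterion says nothing there. Leaving out 1 library moved the mean by over 1.5 times for 11 members, of which 3 average at least 1 TPM: Adcy2 (3.04 to 1.99 TPM without replicate 1), Pde11a (2.88 to 1.77 TPM without replicate 2) and Pde3a (2.61 to 1.71 TPM without replicate 5).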

Other observations

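Genes that export or anchor cyclic nucleotide signalling, which are not members, were read in the same libraries. Of 8 such genes, 7 were above 0 in all libraries, against 47.2% of all genes, and 6 had a mean of at least 1 TPM, against 51.4% of all genes. The protein kinase A anchoring genes Akap13 and Akap9 had 13.6 to 36.6 TPM and 19.2 to 33.1 TPM. Of the cyclic nucleotide exporters, Abcc5 had 9.08 to 27.0 TPM and Abcc4 had 2.23 to 5.33 TPM, and Abcc5 was the higher in every library. Akap5 and Akap12 reached at most 0.31 and 1.02 TPM.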
